A study of Arabidopsis thaliana with 40 samples.

Results

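The 10 genes described here belong to the salicylic acid pathway of Arabidopsis thaliana and were listed by name, with earlier results of these data known. They are EDS1 (AT3G48090), PAD4 (AT3G52430), SAG101 (AT5G14930), NPR1 (AT1G64280), NPR3 (AT5G45110), NPR4 (AT4G19660), EDS5 (AT4G39030), ICS1 (AT1G74710), CBP60g (AT5G26920) and SARD1 (AT1G73805). Of the 13362 regions in the deposited tables of differential binding, 9 overlapped the span of one of these genes or, where none did, lay within 1 kb of it. They cover 8 of the 10 genes, since PAD4 had 2 regions and ICS1 and CBP60g had none by this rule. Overlap alone gave 8 regions at 7 genes, and a distance of 2 kb gave 14 regions that reached all 10 genes.

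Salicylic acid is the plant hormone of defence against biotrophic pathogens and of systemic acquired resistance. EDS1, PAD4 and SAG101 are lipase-like proteins that pair with each other and carry signals from immune receptors. CBP60g and SARD1 are related transcription factors that switch on ICS1, the isochorismate synthase that commits chorismate to the hormone, and EDS5 is the transporter that exports isochorismate from the chloroplast. NPR1, NPR3 and NPR4 bind salicylic acid; NPR1 acts as a coactivator with TGA transcription factors, while NPR3 and NPR4 act as corepressors. Histone H3 acetylated on lysine 9 or 14 (H3K9/14ac) marks active genes, and NPR1 is also known to be modified by nitric oxide.

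H3K9/14ac was profiled by sequencing of immunoprecipitated chromatin (ChIP-seq) in whole 7-day-old Col-0 seedlings, raised in shaken liquid medium with sucrose and short days of 10 h light and 14 h dark. The treated groups received 5 µM TSA (trichostatin A, which inhibits histone deacetylases), 250 µM S-nitrosoglutathione (GSNO, which releases nitric oxide), 250 µM glutathione (GSH, which lacks the nitroso group of GSNO), or 250 µM GSNO with 500 µM of the nitric oxide scavenger cPTIO, and the control group received water. Each treatment lasted 3 h or 16 h, with 2 biological replicates, and the series asks which acetylation sites respond to nitric oxide. Of 40 samples 20 were ChIP libraries and 20 inputs, and the inputs were not analysed here. None of these samples received a pathogen or salicylic acid or carried a mutation, and in whole seedlings fewer cells with the mark and less mark per cell cannot be told apart.

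The deposited tables give group means, from which the reads of 17 libraries were recovered, 2 for each group except water at 16 h, which had 1. They held 1590342 (water, 16 h) to 4053207 (GSNO, 3 h) reads in the 13362 regions. Whether input reads had been subtracted from them is not stated in the sources used here, so they may not be raw reads. The replicate number of a recovered library is unknown, so the shallower of each pair is named a and the deeper b. TSA at 16 h was analysed through its peak lists alone. Levels below are reads scaled by trimmed means of M-values (TMM) per kb of region. Log2 folds are treated over water on the log2(scaled reads + 1) scale. Such scaling takes the bulk of regions as unchanged, so a fold is relative to the other regions. A change shared by all regions would not show.

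Most of the regions lay inside the gene they were linked to. PAD4 region 1 (chromosome 3, 19431342 to 19432032) was centred at 17.6% of the gene span, counted from its low-coordinate end, and region 2 (chromosome 3, 19432783 to 19433448) at 60.2%. The regions of EDS1 (chromosome 3, 17756982 to 17757773), NPR1 (chromosome 1, 23854849 to 23855450) and NPR4 (chromosome 4, 10697828 to 10698545) were centred at 72.7%, 82.5% and 75.5%. Those of SAG101 (chromosome 5, 4828782 to 4829587) and NPR3 (chromosome 5, 18228960 to 18229898) stood at 27.6% and 23.4%. SARD1's region (chromosome 1, 27744681 to 27745362) was centred at 5.19% of the span and also overlapped the protein-coding gene AT1G73790. EDS5 was linked only by distance, and its region (chromosome 4, 18189875 to 18190517) overlapped AT4G39040 and a long non-coding RNA gene. The NPR1 region also overlapped a long non-coding RNA gene, so reads at these 3 regions cannot be given to 1 gene. Strand was not used, and positions are not distances from a transcription start.

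NPR1, the coactivator, had the highest level of the 9 regions, with a median of 443 scaled reads per kb over 17 libraries (range 337 to 613). Its mean level stood at percentile 95.9 of all regions. SARD1 followed with a median of 320 (181 to 397), EDS5 with 315 (217 to 411) and SAG101 with 244 (182 to 296). Close behind were NPR3 at 221 (118 to 284), EDS1 at 220 (172 to 266) and PAD4 region 1 at 202 (72.9 to 263). NPR4 had 176 (85.5 to 260), and PAD4 region 2, at percentile 13.3 of all regions, had the lowest median at 157 (104 to 202). The ranges of every 2 neighbours in this order overlapped. The highest library was 1.55 times the lowest at EDS1, 3.05 times at NPR4 and 3.61 times at PAD4 region 1. Across the 17 libraries, which share depth and scaling, Pearson's r between the 36 pairs of regions ran from -0.46 (SAG101 and EDS5) to 0.66 (PAD4 region 1 and SARD1), with a median of 0.03.

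**Figure D1:**
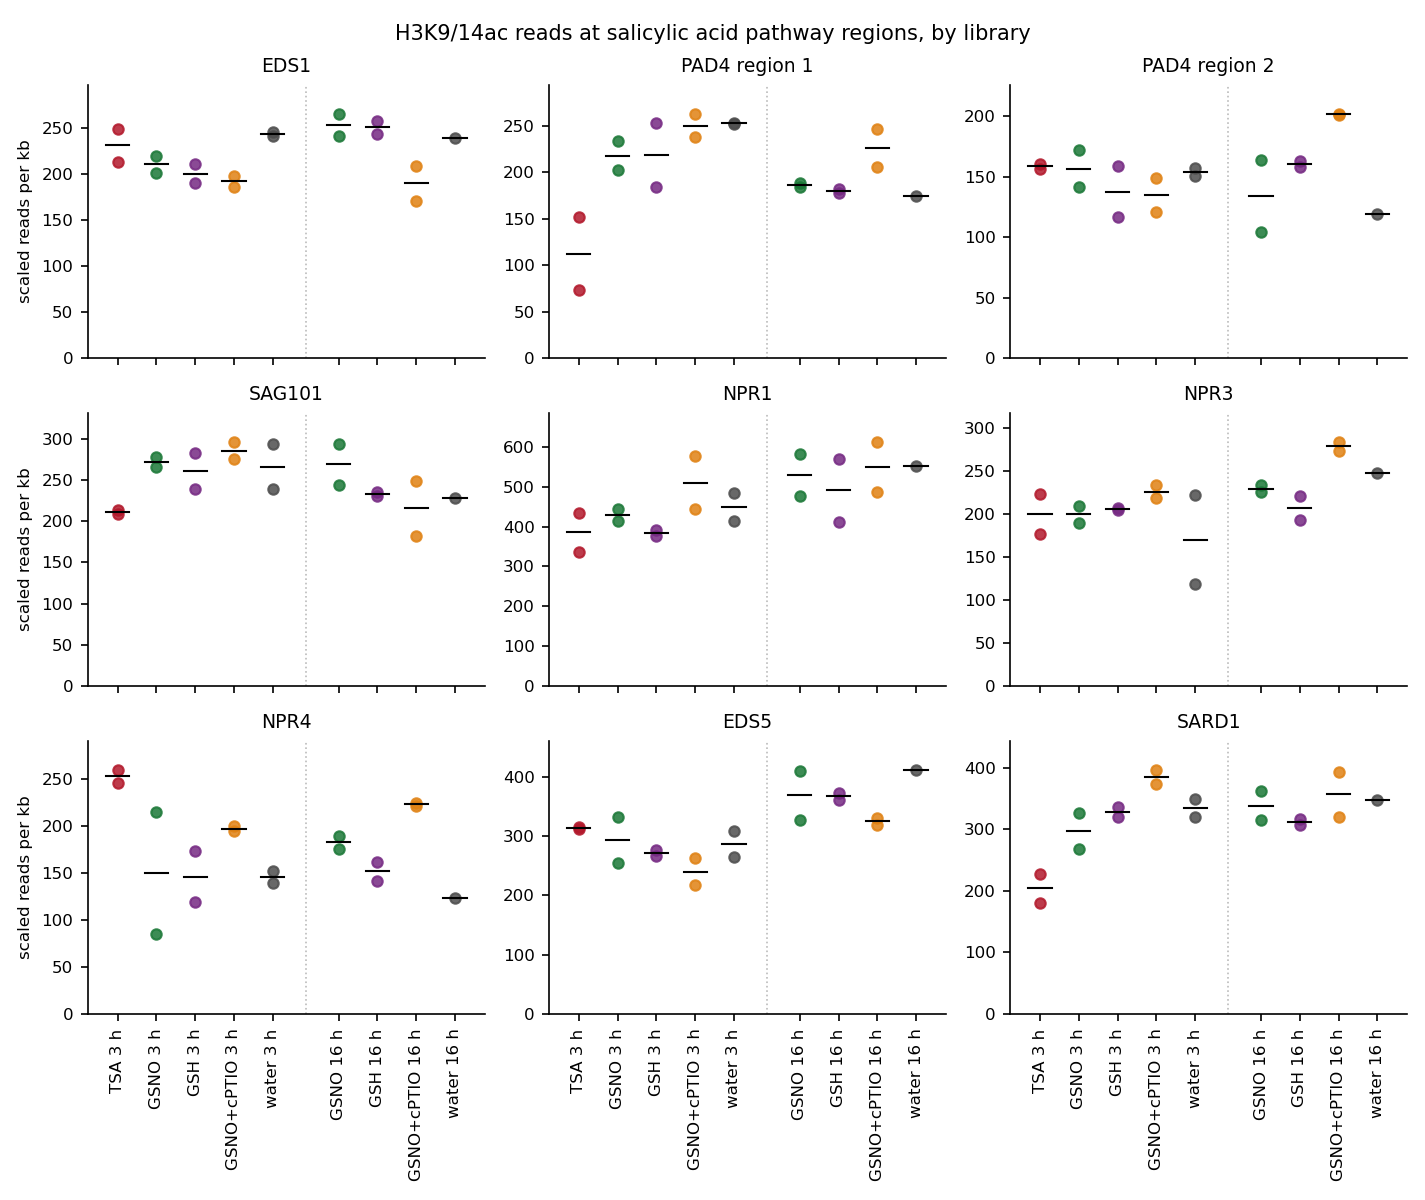
Scaled H3K9/14ac reads per kb (vertical axes, from 0) at the 9 regions, with 1 point per library and a bar at each group's mean, for the groups of 3 h and of 16 h on either side of the dotted line. PAD4 region 1 and SARD1 were lowest in the 2 TSA libraries, and NPR4 was highest in them. The share of all regions with such extremes is not given here.

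After 3 h with the deacetylase inhibitor, acetylation relative to all regions was lower at PAD4 region 1 and at the SARD1 region. No other member region was called. PAD4 region 1 fell by 1.25 and SARD1 by 0.72 on the log2 scale, while NPR4 had a positive fold of 0.79 that missed the threshold in limma's fit of all libraries and was called in the authors' deposited table. In limma, with Benjamini-Hochberg adjustment over all regions and calls at an adjusted p under 0.05, 2 of 9 member regions were lower and 0 higher. Among all 13362 regions 15.3% were called, 10.0% lower and 5.32% higher, so the members' share is near that of the background. The members' median fold was -0.081, against 0.013 over all regions. Where TSA libraries are described below as the lowest or highest, or as not overlapping water, the share of all regions like that was not counted.

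Within the EDS1, PAD4 and SAG101 group the first region of PAD4 changed. It had 98 and 48 reads in the TSA libraries, against 131 and 235 in the water libraries. Scaled per kb these were 112.5 ± 56.0 with TSA and 253.1 ± 0.782 in water (SD, n = 2 each), and both TSA libraries lay below both water libraries. They were also the 2 lowest of all 17 libraries at this region. The log2 fold was -1.25 ± 0.28 (SE; limma adjusted p = 0.00436), and the authors' deposited table gave -1.18 with a false discovery rate (FDR) of 0.00177. TSA library b carried much of the fall: without it the fold was -0.75 (adjusted p = 0.110), and without TSA library a it was -1.79 (adjusted p = 0.00145).

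The second region of PAD4, further along the gene, did not follow the first. It had 97 and 102 reads in the TSA libraries, against 75 and 141 in water, and its log2 fold was 0.04 ± 0.34 (limma adjusted p = 0.951). The ratio of reads in region 1 to region 2, which does not depend on the scaling between libraries, was 1.01 and 0.471 in the TSA libraries, against 1.75 and 1.67 in the water libraries of 3 h. All of the other 15 libraries had ratios from 1.06 to 2.25, with a median of 1.52. An exact two-sided permutation test of the 2 TSA against the 2 water ratios gave p = 0.333, the smallest that 2 libraries per group allow, so it cannot decide. The ratio contains the called region 1 and is not separate support for that call.

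**Figure D2:**
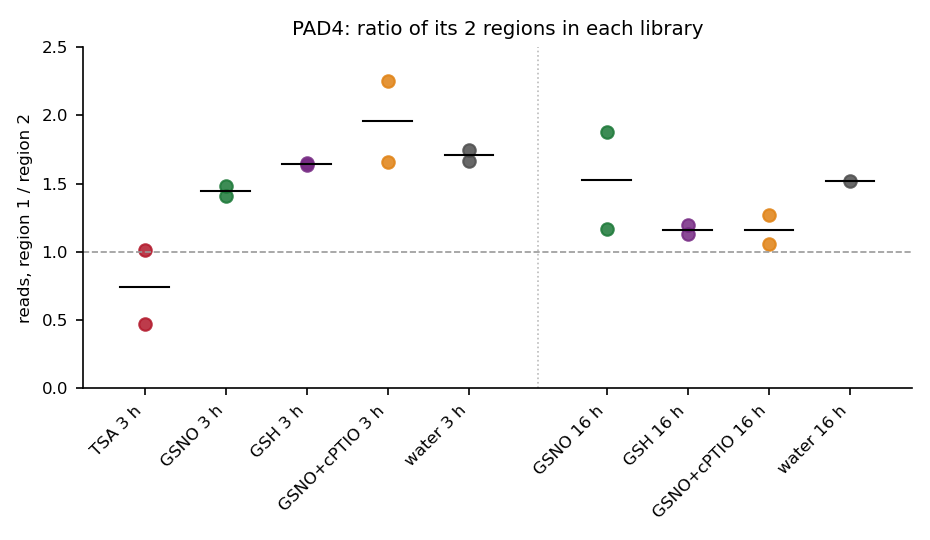
Ratio of reads in PAD4 region 1 to reads in region 2 (vertical axis, from 0), with 1 point per library, a bar at each group's mean and a dashed line at equal reads. The 2 TSA libraries, at 1.01 and 0.471, are the lowest of the 17.

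EDS1, the shared partner of both complexes, had 158 and 188 reads in the TSA libraries, against 146 and 258 in water. Its scaled levels overlapped between the groups, and the log2 fold was -0.08 ± 0.18 (95% interval -0.46 to 0.30). EDS1B (AT3G48080) is a near-identical neighbour in Col-0, and reads that match both copies may have been divided between them or dropped. SAG101 had 157 and 164 reads in the TSA libraries, against 144 and 318 in water, and both TSA libraries were lower per kb. Its log2 fold of -0.32 ± 0.18 did not pass the threshold (limma adjusted p = 0.246).

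Among the receptors, NPR4, a corepressor, had 165 and 178 reads in the TSA libraries, against 75 and 147 in water. Per kb this was 253.4 ± 9.76 with TSA and 145.9 ± 8.68 in water (SD, n = 2 each), without overlap, and the TSA libraries were the 2 highest of all 17. The log2 fold of 0.79 ± 0.32 missed the threshold in limma (adjusted p = 0.0941), was 0.79 with an FDR of 0.00603 in the authors' deposited table, and passed in limma on the TSA and water libraries alone (adjusted p = 0.0189). Leaving out single libraries of TSA or water gave folds from 0.73 to 0.85, none of them called. NPR3, the other corepressor, had 195 and 158 reads in the TSA libraries, against 83 and 280 in water, and the groups overlapped. Its log2 fold of 0.29 ± 0.22 was not called (limma adjusted p = 0.379), but it was 0.74 without water library b (adjusted p = 0.0258) and -0.16 without water library a. NPR1 had 189 and 249 reads in the TSA libraries, against 218 and 336 in water, and a log2 fold of -0.23 ± 0.19 (95% interval -0.62 to 0.16).

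Among the genes of synthesis and its control, SARD1 had 115 and 148 reads in the TSA libraries, against 178 and 294 in water. Per kb this was 204.4 ± 33.2 with TSA and 334.7 ± 20.6 in water (SD, n = 2 each). The groups did not overlap, and the 2 TSA libraries were the lowest of the 17. The log2 fold was -0.72 ± 0.17 (limma adjusted p = 0.00814), and -0.72 with an FDR of 0.0145 in the authors' deposited table. Leaving out TSA library a gave -0.57 (adjusted p = 0.113) and leaving out water library a -0.65 (adjusted p = 0.0850). The region beside EDS5 had 189 and 191 reads in the TSA libraries, against 148 and 229 in water, with a log2 fold of 0.14 ± 0.18 (95% interval -0.24 to 0.51).

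The authors' deposited table of this comparison called 20.8% of all regions, and among the members 1 higher and 2 lower. Leaving out single libraries changed the limma count over all regions from 2047 to 594 (without water library a), 769 (without TSA library a), 859 (without TSA library b) or 1625 (without water library b). Root and shoot markers were looked at beside these results. Of 4 root markers, SCR and SHR had regions, with log2 folds of -0.03 ± 0.19 and 0.04 ± 0.31, and PLT1 and PLT2 had none. Of 4 shoot markers, TMM was higher (0.72 ± 0.18, limma adjusted p = 0.00925), RBCS1A was not called (-0.31 ± 0.17, adjusted p = 0.232), and STM and SPCH had no region. The part of tissue composition in the members' folds was not tested.

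Set against GSNO, TSA gave calls at the same 2 regions, in the same fit of all 17 libraries. PAD4 region 1 had a log2 fold of -1.04 ± 0.28 (limma adjusted p = 0.0178) and SARD1 one of -0.54 ± 0.17 (adjusted p = 0.0466), so that 2 of 9 members were lower and 0 higher. Over all regions 11.7% were called, 8.05% lower and 3.67% higher. The comparison shares the TSA libraries, and the pooled spread, with the one against water. The SARD1 call was lost without limma's variance trend (adjusted p = 0.0811), on these 2 groups alone (0.0764) and without any one of the 4 libraries (0.0514 to 0.322). The PAD4 call was lost without either GSNO library (adjusted p = 0.0790 without a, 0.0660 without b) or without TSA library b (0.291). NPR4 had a log2 fold of 0.89 ± 0.32 (adjusted p = 0.0695), which passed on these 2 groups alone (adjusted p = 0.0293). The GSNO libraries were uneven at NPR4, at 85.5 (a) and 215.9 (b) per kb, against 246.5 and 260.3 with TSA. Without GSNO library b the fold was 1.53, which rests on the low library a.

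**Figure D3:**
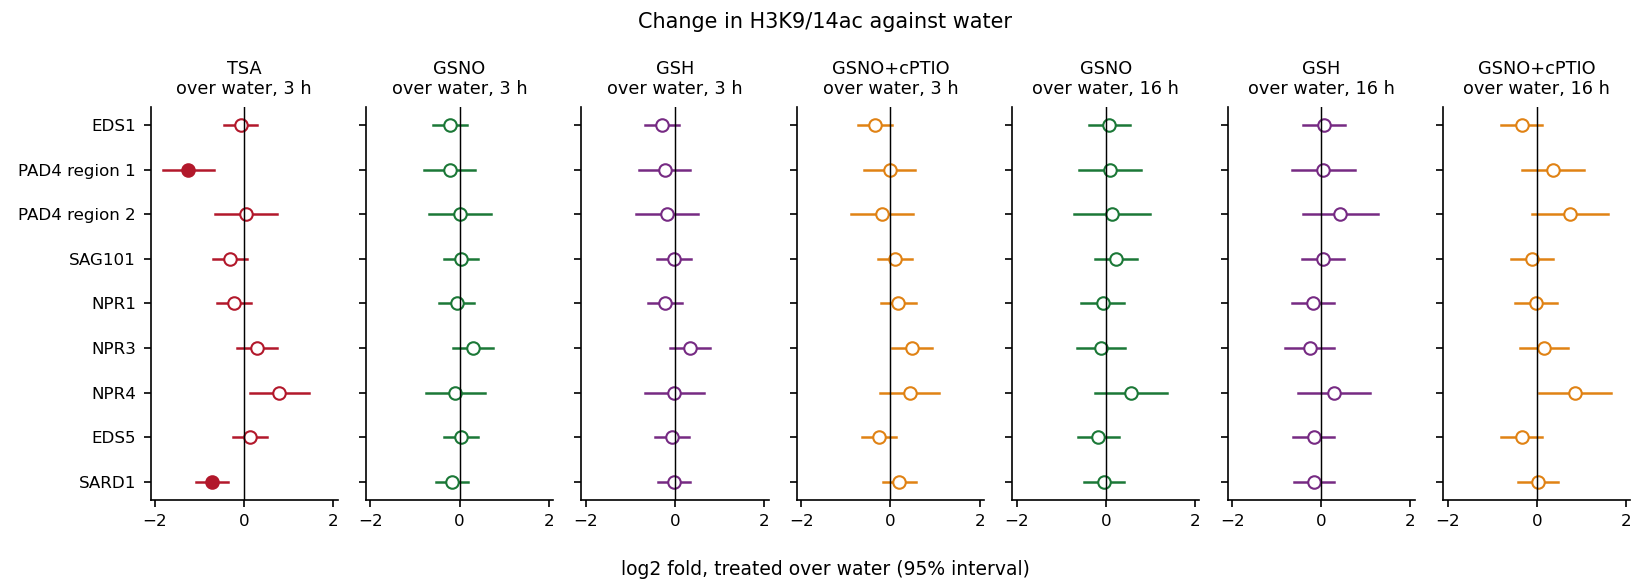
Log2 fold of scaled reads, treated over water, for the 9 regions in each comparison with water; points are fold changes, lines are 95% intervals, and filled points passed an adjusted p under 0.05 in limma. The 2 filled points are PAD4 region 1 (-1.25) and SARD1 (-0.72) with TSA.

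No member region was called after 3 h with GSNO, GSH or GSNO with cPTIO. With GSNO the log2 folds ran from -0.22 (PAD4 region 1) to 0.30 (NPR3), with GSH from -0.28 (EDS1) to 0.34 (NPR3), and with GSNO and cPTIO from -0.34 (EDS1) to 0.48 (NPR3). limma called 0 of 9 in each, and so did the authors' deposited tables. At an unadjusted p under 0.05 there were 0, 0 and 1 members, against 515, 377 and 605 of all 13362 regions. Over all regions limma called 0.00748% in each of these comparisons, while the shares in the authors' deposited tables were 0.0449%, 0.105% and 0.0374%. All 9 of the 95% intervals lay within 1 on the log2 scale for GSNO and for GSH, as did 8 of 9 for GSNO with cPTIO. The median fold of the members was -0.064 with GSNO, -0.073 with GSH and 0.11 with GSNO and cPTIO, against -0.0059, 0.0034 and -0.0019 over all regions. These comparisons share the water libraries of 3 h.

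NPR3 had the highest fold in each of the 3 comparisons. It had 125 and 325 reads with GSNO, 210 and 279 with GSH and 151 and 302 with GSNO and cPTIO, against 83 and 280 in water. Per kb the 6 treated libraries stood between 189.95 and 233.85, against 118.3 and 221.4 in water, and the log2 folds were 0.30 ± 0.22, 0.34 ± 0.22 and 0.48 ± 0.22 in that order. Without water library a they were -0.15, -0.11 and 0.028. PAD4 region 1 had 98 and 268 reads with GSNO, 139 and 251 with GSH, and 121 and 250 with GSNO and cPTIO, against 131 and 235 in water. Its folds were -0.22 ± 0.28, -0.23 ± 0.28 and -0.02 ± 0.28 in that order. NPR4 was uneven with GSNO, at 43 and 257 reads or 85.5 and 215.9 per kb, against 139.8 and 152.04 per kb in water, and its fold was -0.099 ± 0.32. Without GSNO library a it was 0.56, and without library b -0.76.

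After 16 h the same 3 treatments again gave 0 of 9 calls among the members, in limma and in the authors' deposited tables. Over all regions limma called 0.329% with GSNO, 0.374% with GSH and 0.666% with GSNO and cPTIO, while the shares in the authors' deposited tables were 0.935%, 2.16% and 0.561%. Of all 13362 regions, 1035, 998 and 1552 had an unadjusted p under 0.05, and among the members 0, 0 and 1. That 1 was NPR4 with GSNO and cPTIO, at 106 and 131 reads, against 56 in the lone water library, with a log2 fold of 0.85 ± 0.39 (limma adjusted p = 0.396). GSNO gave NPR4 96 and 187 reads and a fold of 0.56 ± 0.39, and GSH 134 and 151 reads and 0.29 ± 0.39. PAD4 region 2 had 89 and 109 reads with GSNO and cPTIO, against 50 in water, and a log2 fold of 0.75 ± 0.41 (adjusted p = 0.502). The intervals are wide here, since water at 16 h had 1 library, whose spread was taken from the other groups; 8, 7 and 6 of the 9 intervals lay within 1 on the log2 scale for GSNO, GSH and GSNO with cPTIO.

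GSNO over GSH, both given at 250 µM, left no member called at 3 h or 16 h. The log2 folds of GSNO over GSH ran from -0.15 (SARD1) to 0.19 (PAD4 region 2) at 3 h and from -0.29 (PAD4 region 2) to 0.27 (NPR4) at 16 h. All 9 of the 95% intervals lay within 1 at each time, the widest from -0.50 to 0.89 at 3 h and from -0.99 to 0.40 at 16 h, both at PAD4 region 2. limma called 0 of all 13362 regions at either time (0%). An unadjusted p under 0.05 was found at 0 of 9 members, against 229 of all regions at 3 h and 337 at 16 h. The members thus differed by less than 2-fold within these intervals, which does not show that the 2 compounds act alike.

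GSNO over GSNO with cPTIO also gave 0 of 9 calls at both times in limma, with 0% of all regions called at 3 h and 0.0225% at 16 h. Of all 13362 regions, 614 at 3 h and 1297 at 16 h had an unadjusted p under 0.05, and among the members 1 at each time. At 3 h it was SARD1, at 128 and 369 reads with GSNO, against 188 and 372 with GSNO and cPTIO (log2 fold -0.38 ± 0.17, adjusted p = 1.00). At 16 h it was EDS1, at 135 and 311 reads with GSNO, against 110 and 110 with GSNO and cPTIO (0.42 ± 0.18, adjusted p = 0.469). Per kb EDS1 stood at 253.7 ± 17.3 with GSNO and 190.3 ± 26.6 with GSNO and cPTIO (SD, n = 2 each), without overlap.

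Between 3 h and 16 h of the same treatment no member was called, while limma called 1.87% of all regions in water, 0.883% with GSNO, 0.494% with GSH and 3.44% with GSNO and cPTIO. The region beside EDS5 was higher at 16 h in all 4 treatments, but none of these folds passed. Its log2 fold of 16 h over 3 h was 0.33 ± 0.18 with GSNO, 0.43 ± 0.18 with GSH, 0.44 ± 0.18 with GSNO and cPTIO and 0.53 ± 0.22 in water, with adjusted p from 0.216 to 0.580. NPR3 had a fold of 0.61 ± 0.26 in water (adjusted p = 0.284), which was 1.06 without water library b of 3 h (adjusted p = 0.0246). SAG101 had a fold of -0.42 ± 0.18 with GSNO and cPTIO (adjusted p = 0.249). At an unadjusted p under 0.05 there were 2 members in water, 0 with GSNO, 1 with GSH and 2 with GSNO and cPTIO. Over all 13362 regions the counts were 1841, 1451, 902 and 2160 in that order. The hour of day of harvest is not given in the labels, so treatment length and daily time cannot be told apart. The difference of a treatment's response between 16 h and 3 h was called at 0 of 9 members for GSNO, GSH and GSNO with cPTIO. Of all regions 0.120%, 0.120% and 0.180% were called. An unadjusted p under 0.05 was found at 0 members in each, against 802, 647 and 994 of all regions.

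Peak lists, called per library, cover the 2 genes with no region by the rule used here. ICS1 had a peak in 3 of the 4 TSA lists and in none of the 16 lists of other groups. With TSA for 3 h, replicate 1 had peaks at chromosome 1, 28070510 to 28071043 and 28071444 to 28072002, and replicate 2 had one at 28070492 to 28070977. With TSA for 16 h, replicate 1 had peaks at 28070522 to 28071080 and 28071584 to 28072004, close to those of 3 h, and replicate 2, whose list held only 385 peaks, had none. Of 27444 protein-coding genes, 242 (0.882%) had this pattern of peaks in both TSA lists of 3 h, in replicate 1 of 16 h and in none of the 16 other lists. A peak in both TSA lists and in no other list of 3 h was found at 586 genes (2.14%), and in both TSA and neither water list of 3 h at 1023 genes (3.73%). ICS1 was the only 1 of the 10 members in each count. A list shows whether a peak passed the caller's threshold, not a level, so no test was made.

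CBP60g, the relative of SARD1, had a peak in 0 of the 4 TSA lists and in 4 of the others, 1 replicate each of GSNO, GSH, GSNO with cPTIO and water at 3 h. Over all protein-coding genes, 354 (1.29%) had a peak in neither TSA list and in both water lists of 3 h, and 0 of the 10 members did, CBP60g having one in 1 of the 2 water lists. Its peaks lay between 9476613 and 9477231 on chromosome 5. EDS5 had a peak inside its own span in 6 lists, both TSA lists of 3 h, replicate 1 of TSA at 16 h, and 1 list each of GSNO at 16 h, GSH at 16 h and water at 3 h. They began between 18185683 and 18185827 on chromosome 4, at the other end of the gene from the region counted above. The share of all genes with the pattern of CBP60g, or with that of EDS5, is not given here, and neither pattern was tested.

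At the regions with counts, the peak lists followed the reads only in part. PAD4 region 1 had a peak in 16 of 20 lists and, among those of 3 h, was missing in replicate 2 of TSA alone. PAD4 region 2, whose log2 fold with TSA was 0.04, had one in 6 lists. They held 0 of the 2 TSA lists and 1 of the 2 water lists of 3 h. NPR4 had a peak in 10 lists, both TSA lists of 3 h among them, against 1 of the 2 water lists of 3 h. EDS1 and SAG101 had one in 17 lists, NPR3 in 17, and NPR1, SARD1 and the region beside EDS5 in 18. SARD1, called lower with TSA, had a peak in both TSA lists of 3 h. The lists of 3 h held from 7884 to 13881 peaks and those of 16 h from 385 to 14758, so a missing peak weighs less in a short list, such as replicate 2 of TSA or of water at 16 h.

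**Figure D4:**
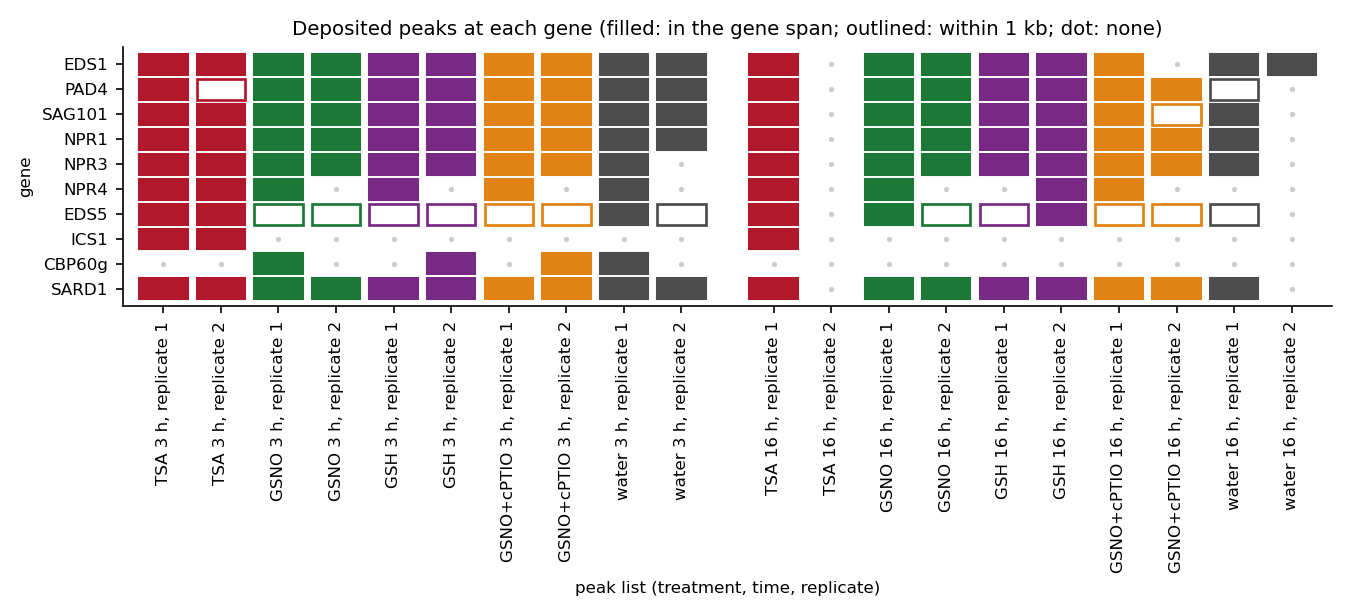
Presence of deposited peaks at the 10 genes (rows) in the 20 peak lists (columns, by treatment, time and replicate); filled squares mark a peak in the gene span, outlined squares one within 1 kb, and dots none. ICS1 is filled in 3 TSA lists and in no other.

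Of 46 further genes of the pathway, 29 had a total of 32 regions. With TSA at 3 h, limma called 3 of these regions higher and 6 lower, against a median fold of -0.085, while the authors' deposited table held 4 higher and 8 lower ones. The share of 32 called, like that of the members, was not tested against the 15.3% of all regions.

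The list of helper immune receptors, NDR1 and EDS1B had 1 region higher and 2 lower of 8, the higher one being that near EDS1B. ADR1-L1 region 2 had 67 and 74 reads in the TSA libraries, against 142 and 253 in water, and a log2 fold of -1.33 ± 0.25 (limma adjusted p = 0.00134). It overlaps a second protein-coding locus tag, AT4G33310, and ADR1-L1 region 1 had a fold of -0.11 ± 0.17 (adjusted p = 0.694). NDR1, a membrane protein needed by a class of immune receptors, had 118 and 102 reads in the TSA libraries, against 152 and 329 in water (-0.93 ± 0.17, adjusted p = 0.00125). The region within 1 kb of EDS1B, which overlaps AT3G48070, was higher, at 166 and 184 reads in the TSA libraries, against 70 and 160 in water (0.81 ± 0.26, adjusted p = 0.0356).

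Regulators of salicylic acid synthesis had 1 region higher and 2 lower of 4. CAMTA3, a calmodulin-binding repressor of defence genes, had a log2 fold of -0.85 ± 0.21 (limma adjusted p = 0.00870), and CBP60A, a relative of CBP60g that restrains immunity, one of -0.69 ± 0.19 (adjusted p = 0.0177). WRKY46, a defence transcription factor, was higher, at 210 and 183 reads in the TSA libraries, against 53 and 196 in water (1.03 ± 0.25, adjusted p = 0.00858), but without water library a its fold was 0.51 (adjusted p = 0.235).

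The NPR1 partners and TGA factors had 1 higher and 1 lower of 13. The region at NIMIN3, an NPR1-interacting repressor, was lower (-0.90 ± 0.26, limma adjusted p = 0.0203) and also overlaps the protein-coding gene AT1G09420. NIMIN3 had a peak in 12 lists, none of them with TSA. Its relative NIMIN2 had a fold of -0.79 with an FDR of 0.0199 in the authors' deposited table but was not called by limma (adjusted p = 0.110), and it had a peak in 10 lists, again none with TSA. Of the 46 genes, 3 had peaks in other lists but none in the 4 TSA lists, the other being WRKY54, with a peak in 1 list. These counts were not tested, and the share over all genes is not given here. Of the 4 TSA lists, replicate 2 of 16 h held only 385 peaks. The region near TGA6, which overlaps 2 other protein-coding genes, was higher (0.61 ± 0.18, adjusted p = 0.0203). In the authors' deposited table TGA7 (-0.77, FDR 0.0125) and CUL3B (0.84, FDR 0.0492) were called as well.

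In the synthesis list PAL2, a phenylalanine ammonia-lyase, was lower of 6 regions at 5 genes (-0.80 ± 0.18, limma adjusted p = 0.00486), with 234 and 247 reads in the TSA libraries, against 351 and 570 in water. The single region of the hydroxylation and conjugation list, at UGT74F2, had a log2 fold of 0.23 ± 0.21 (adjusted p = 0.478). PR1, PR2 and PR5, the classic output genes, had no region and no peak in any of the 20 lists. In all, 17 of the 46 genes had a peak in no list, and 15 had one in 15 or more lists, with no share over all genes beside these counts.

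ADR1-L1 region 2 and NDR1 kept their calls with TSA without any 1 of the 4 libraries, whereas TGA6 and CBP60A lost theirs without each of them, and the other 5 without at least 1. Outside the TSA comparisons limma called 1 region of the further genes, ADR1-L1 region 2, which was lower with GSNO and cPTIO at 16 h than at 3 h (38 and 74 reads, against 158 and 225; -1.36 ± 0.25, adjusted p = 0.00240). That call was lost on these 2 groups alone (adjusted p = 0.0694) and without library a of GSNO with cPTIO at 3 h (0.0664). TGA2, a partner of NPR1, was called higher at 16 h in the authors' deposited tables, with a fold of 1.71 with GSNO (FDR 0.0165) and 1.78 with GSH (FDR 0.00139). It had 61 and 147 reads with GSNO and 94 and 169 with GSH, against 18 in the lone water library, and limma did not call it (adjusted p = 0.364 and 0.344).

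**Figure D5:**
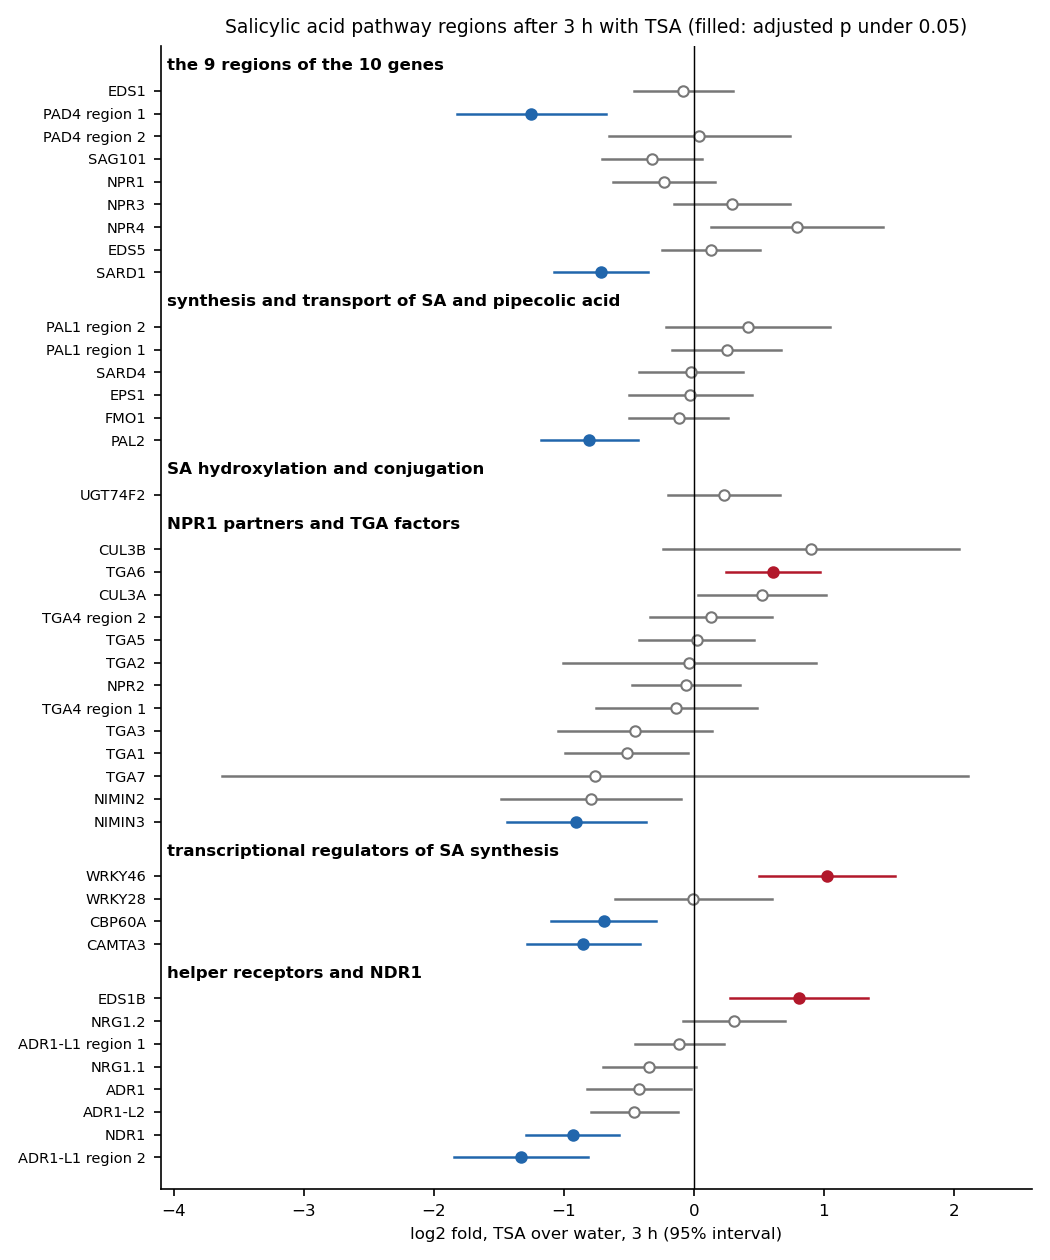
Log2 fold of scaled reads, TSA over water at 3 h, for the 9 member regions and the 32 regions of further pathway genes, grouped by role; lines are 95% intervals and filled points passed an adjusted p under 0.05 in limma (red higher, blue lower). Filled points are 2 of the 9 member regions and 9 of the other 32.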

How the data were processed

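The authors deposited 7 tables of the same 13362 regions, each with the log2 mean of normalised reads per group, a log2 fold, and a p-value and FDR, and 1 peak list per ChIP library with start and end only. DiffBind and edgeR are named without versions, and TAIR10 and TAIR9 as builds, per the submitters' processing notes; the aligner, peak caller and filters were not given in the sources used here. Coordinates are those of the files. Gene spans and names came from RefSeq's table for TAIR10.1, in which 98.5% of region midpoints lay in a gene; its coordinates are not printed.

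Whole reads per library were solved from the deposited group means, 100% of values within a tolerance of 1e-08, which simulated pairs returned without error. Reads were scaled by TMM (trims 0.3 and 0.05), put on the log2(x + 1) scale and passed to limma 3.58.1 (R 4.3.3; moderated two-sided test with a trend in the prior variance, 1 fit of 9 groups, 8 residual degrees of freedom, Benjamini-Hochberg adjustment over 13362 regions, threshold 0.05). The authors' deposited fold and FDR stand beside it. Each p-value rests on a spread pooled over the 9 groups and moderated across regions, not on that of the groups compared alone. Groups had 2 cultures, or 1 for water at 16 h, and intervals are 95%. On simulated reads, 2-fold changes were recovered at 84% for TSA, 80% to 86% for the other comparisons of 3 h and 48% to 60% at 16 h, and 4-fold ones at 99% or 100%. False calls made up 6 of 190 for TSA, but 22 of 181, 17 of 164 and 30 of 187 for GSNO, GSH and GSNO with cPTIO at 16 h. The simulated reads had 1 spread shared by all regions, and 200 regions were changed per comparison. Real regions differ in spread, and TSA had far more calls, so these rates need not hold for the real libraries.

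In 13 peak lists 1 record spanned all of chromosome 3 and in 1 list the mitochondrial genome; these 14 records, over 10 kb, were left out. Low reads were not filtered, so all 9 member regions were tested. The members, the lists of further genes and their naming (each region called by limma, plus EDS1B, PR1, PR2 and PR5) were chosen with earlier results of these data known, PAD4 with TSA among them. TGA2, TGA7, NIMIN2, CUL3B and UGT74F2 were added after their values were seen. No sequence is shown.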

Additional observations from a re-analysis of the deposited data

How the results depend on the processing

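Of the members' folds under other settings, 1474 kept their direction and side of the threshold, 12 lost a call, 6 gained one and 92 changed sign, none of them called before or after; of the called folds of further genes, 109 kept their call and 35 lost it. Median-ratio scaling moved the median of all folds by less than 0.01. Counts below are of all called regions unless members are named, and the cause of each change was not tested.

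Without the trend the calls were 2, 2 and 3 at 3 h for the GSNO, GSH and GSNO with cPTIO comparisons with water (1 each before), 2 for GSNO over GSNO with cPTIO at 3 h (0), 7 at 16 h (3), 925 for TSA over GSNO (1566, and 1 member for 2), 41, 32 and 249 for 16 h over 3 h with GSNO, GSH and GSNO with cPTIO, and 26 for the GSH response of 16 h minus 3 h (16). On the groups compared alone they were 0, 0 and 0 against water at 3 h, 18, 314 and 0 at 16 h (44, 50 and 89), 0 for GSNO over GSNO with cPTIO at 16 h, 192, 500 and 138 for 16 h over 3 h with GSNO, GSH and GSNO with cPTIO (118, 66 and 459), and 2 and 0 for the responses of GSNO (16) and of GSNO with cPTIO (24). A pseudocount of 5 gave 5 for GSNO over GSNO with cPTIO at 16 h and 10 and 14 for the responses of GSH and of GSNO with cPTIO. The authors' deposited tables called 6, 14 and 5 at 3 h and 125 and 288 for GSNO and GSH at 16 h.

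Leaving out single libraries gave 594 to 1625 for TSA (1 to 3 members), 290 to 1897 for TSA over GSNO (0 to 1 member), 1 to 54, 1 to 51 and 1 to 44 for the others at 3 h, 28 to 69, 25 to 25 and 78 to 300 at 16 h, 0 to 61 and 0 to 48 for GSNO over GSH, 1 to 52 and 2 to 287 for GSNO over GSNO with cPTIO, 117 to 230 (0 to 1 member), 22 to 273, 5 to 32 and 160 to 679 for 16 h over 3 h in water, GSNO, GSH and GSNO with cPTIO, and 11 to 62, 9 to 19 and 9 to 101 for the responses; members gave 0 to 0 in all others. Without the lone water library of 16 h, its comparisons have no value. A stricter peak overlap of 100 bp left 0 member genes with a peak in water at 16 h, replicate 2, in place of 1. The better-scored part of each peak list was not run, because scores were 0 throughout. No paired analysis was possible because the recovered libraries carry no replicate number.

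Of the 92 sign changes 90 came from leaving out a library, at 63 uncalled folds, and 2 stood in the authors' deposited tables, NPR4 at 0.047 with GSNO and 0.0055 with GSH at 3 h. The lowest and highest log2 folds without single libraries follow for those 63. TSA over water at 3 h gave EDS1 -0.21 to 0.013 and NPR3 -0.16 to 0.74. GSNO over water at 3 h gave PAD4 region 2 -0.12 to 0.16, SAG101 -0.11 to 0.18, NPR1 -0.18 to 0.049, NPR3 -0.15 to 0.75, NPR4 -0.76 to 0.56 and EDS5 -0.16 to 0.22. GSH over water at 3 h gave PAD4 region 2 -0.39 to 0.045, SAG101 -0.17 to 0.12, NPR3 -0.11 to 0.79, NPR4 -0.28 to 0.25, EDS5 -0.18 to 0.037 and SARD1 -0.089 to 0.036. GSNO with cPTIO over water at 3 h gave PAD4 region 1 -0.093 to 0.055, SAG101 -0.037 to 0.25 and NPR1 -0.016 to 0.36. GSNO over water at 16 h gave PAD4 region 2 -0.19 to 0.46, NPR1 -0.21 to 0.074 and SARD1 -0.14 to 0.054. GSH over water at 16 h gave NPR1 -0.42 to 0.046. GSNO with cPTIO over water at 16 h gave SAG101 -0.32 to 0.12, NPR1 -0.18 to 0.15 and SARD1 -0.12 to 0.17. GSNO over GSH at 3 h gave EDS1 -0.0073 to 0.14, PAD4 region 1 -0.22 to 0.24, PAD4 region 2 -0.026 to 0.41, SAG101 -0.060 to 0.18, NPR3 -0.11 to 0.022, NPR4 -0.74 to 0.58 and EDS5 -0.085 to 0.29. GSNO over GSH at 16 h gave EDS1 -0.057 to 0.083, PAD4 region 2 -0.62 to 0.028, NPR1 -0.12 to 0.35 and EDS5 -0.17 to 0.16. GSNO over GSNO with cPTIO at 3 h gave NPR4 -1.19 to 0.13. GSNO over GSNO with cPTIO at 16 h gave NPR1 -0.22 to 0.11 and SARD1 -0.22 to 0.076. TSA over GSNO at 3 h gave PAD4 region 2 -0.12 to 0.14, NPR1 -0.37 to 0.0031, NPR3 -0.19 to 0.14 and EDS5 -0.082 to 0.28. 16 h over 3 h in water gave SARD1 -0.0035 to 0.12. 16 h over 3 h in GSNO gave PAD4 region 2 -0.58 to 0.069, SAG101 -0.15 to 0.11 and NPR4 -0.24 to 1.08. 16 h over 3 h in GSH gave NPR3 -0.10 to 0.11 and NPR4 -0.19 to 0.34. 16 h over 3 h in GSNO with cPTIO gave EDS1 -0.16 to 0.12, NPR1 -0.081 to 0.30 and SARD1 -0.26 to 0.029. The GSNO response gave PAD4 region 2 -0.21 to 0.44, NPR1 -0.15 to 0.14, NPR3 -0.86 to 0.041, NPR4 -0.0020 to 1.32 and SARD1 -0.0090 to 0.27. The GSH response gave SAG101 -0.091 to 0.20, NPR1 -0.20 to 0.27 and EDS5 -0.20 to 0.016. The GSNO with cPTIO response gave EDS1 -0.14 to 0.14, SAG101 -0.43 to 0.015, NPR3 -0.76 to 0.14 and EDS5 -0.22 to 0.050.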

Other observations

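The pattern over the 17 libraries most like the mean centred profile of the 9 regions, among all other regions, was found at CHUP1, which anchors chloroplasts to actin (Pearson's r = 0.84), PGY1, a ribosomal protein of leaf patterning (0.83), CBP60A (0.83), ATSK12, a shaggy-like kinase (0.82), and ABS2 (0.82). The regions share libraries, depth and scaling, and these were picked as the highest of 13362, so r is a description and no p is given. The CBP60A region also overlaps AT5G62573.

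WRKY70, which acts downstream of NPR1, had a peak in 5 lists, all of 16 h (GSNO replicate 1, both GSH lists, GSNO with cPTIO replicate 1 and TSA replicate 1), and in none of the 10 lists of 3 h. DMR6, a salicylic acid hydroxylase, had a peak in 3 lists, GSNO replicate 1, GSH replicate 2 and TSA replicate 1, all of 16 h. Neither gene had a region in the tables, and both were singled out after their peaks had been seen. The share of all genes with such a pattern is not given here.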
